A study of Mus musculus with 20 samples.

Results

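The response of wildtype mouse macrophages to 48 h of LPS/IFNγ stimulation was compared between 2 sets of cultures, those labelled as bone marrow-derived macrophages (BMDM) and the RAW264.7 macrophage-like cell line. The comparison used 10 wildtype libraries of the 20 in the study, which also profiled iNOS KO and Akr1a1 KO cells. The libraries were 3 unstimulated and 3 stimulated cultures labelled BMDM, and 2 unstimulated and 2 stimulated RAW264.7 cultures. A gene was included when it had at least 10 counts in total in each of the 2 count tables, which left 17398 of 56748 genes, 12570 of them protein-coding. For each gene the response was the log2 fold change of stimulated over unstimulated cells. The difference was the response in the BMDM-labelled cells minus the response in RAW264.7 cells, so that a positive value means a more positive response in the BMDM-labelled cells.

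Per the labels, the bone marrow came from C57BL/6J mice of either sex, 6 to 12 weeks old, and was differentiated with 20 ng/mL M-CSF, and the study's methods state that marrow was pooled by genotype. RAW264.7 is a transformed line from a male mouse, and its replicates were described as independent clonal cultures. Both kinds of cell were grown in RPMI-based medium, with M-CSF for BMDM and without it for RAW264.7, and received LPS at 50 ng/mL. The IFNγ dose was 30 ng/mL for BMDM and 10 ng/mL for RAW264.7. The unstimulated cultures received neither agent. Since every BMDM-labelled library stands in one table and every RAW264.7 library in the other, cell origin, M-CSF, IFNγ dose and experiment cannot be told apart in any difference below. Replicates of pooled marrow or of one line differ less than separate animals do, so p-values measure only the spread between these cultures.

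LPS, a component of the bacterial outer membrane, signals through TLR4 to NF-kB and, by way of type I interferon, to interferon-stimulated genes. IFNγ signals through its receptor, and its response with IRF1 includes GTPases of cell-autonomous defence, antigen presentation and, together with NF-kB, the gene of the inducible nitric oxide synthase. Macrophages given both ligands also leave the cell cycle and rebuild their metabolism, and transformed lines keep only part of the repertoire of primary cells.

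Library totals were 15072109 to 17990417 counts in the BMDM-labelled cells and 12361217 to 44583327 in RAW264.7 cells. The median SD between replicates of a gene's log2 CPM (counts scaled by TMM library size) was 0.0655 in unstimulated and 0.0812 in stimulated BMDM-labelled cells (n = 3 each), against 0.0886 and 0.15 in RAW264.7 cells (n = 2 each). The ribosomal transcript Rn18s-rs5 took 1.65% to 2.47% of counts in the BMDM-labelled libraries and 0.497% to 0.77% in RAW264.7. The unstimulated RAW264.7 library B, the deepest of the 10, has a title that names stimulation and a treatment label that names none, and it was grouped by the latter. Its levels of Cxcl2, Ptgs2 and Mki67, given below, were close to those of library A and far from the stimulated RAW264.7 libraries. Its Nos2 level was several-fold above that of A and far below the stimulated libraries. Library B differed from library A in several lists. Of 26 antiviral interferon-stimulated genes that could be compared, 25 were higher in B, by a median of 2.95-fold, against 1.03-fold over all 12927 genes compared. It was also higher in 16 of 17 MHC class I and immunoproteasome genes (1.36-fold), 13 of 14 itaconate, prostaglandin and reactive oxygen enzymes (1.22-fold), 32 of 34 DNA replication genes and 30 of 34 mitosis genes (both 1.12-fold). Counts for the interferon-responsive lists are given with and without it.

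The label BMDM was checked against marker genes. The 14 macrophage markers summed to 10200 to 11200 CPM in the BMDM-labelled libraries, 4510 to 4980 in unstimulated and 11500 to 11600 in stimulated RAW264.7 cells. Pycard, the inflammasome adaptor ASC that primary macrophages express and RAW264.7 cells are known to lack, was at 0.0555 to 0.884 CPM in the BMDM-labelled libraries and at 0.128 to 0.506 CPM in RAW264.7. Mertk, an engulfment receptor of mature macrophages, did not exceed 0.389 CPM at rest in either set and reached 5.58 to 7 CPM in stimulated BMDM-labelled cells, and the complement genes C1qa, C1qb and C1qc, which mature tissue-type macrophages express, stayed under 1 CPM. The levels of Pycard and Mertk go against the label. Sex-linked genes separated the sets. Ddx3y, Eif2s3y, Kdm5d, Uty and Xist summed to 92.4 to 136 CPM in the BMDM-labelled libraries, Xist giving at most 0.124 CPM of it, and to at most 0.304 CPM in RAW264.7. The labels name donors of either sex, yet Xist was near 0 in every BMDM-labelled library. RAW264.7 is a line from a male mouse, yet the sum was near 0 there. The reason was not tested in either set. H2-Ea was present at 10.1 to 10.2 CPM in stimulated BMDM-labelled cells and at 0 in the other 7 libraries. C57BL/6 mice carry a null allele of it, so its presence goes against the label too.

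Osteoclast markers summed to 915 to 991 CPM in the BMDM-labelled libraries and to 97.9 to 415 CPM in RAW264.7, led by Ctsk, the bone-resorbing protease, at 222 to 327 CPM against 0.193 to 3.44 CPM. Markers of dendritic cells (1.74 to 6.04 CPM summed), lymphocytes (0.0642 to 2.41 CPM) and erythroid cells and megakaryocytes (0.706 to 10 CPM) were low in all 10 libraries. Fibroblast markers went from at most 0.435 CPM to 13 to 20.4 CPM with stimulation in the BMDM-labelled cells and from at most 0.185 to 5.87 to 6.26 CPM in RAW264.7. Neutrophil markers went from at most 8.8 CPM to 41 to 131 CPM over both sets. What part these markers have in the results was not tested. The study's own text describes the iNOS experiment as one in RAW264.7 cells, so the libraries are called BMDM-labelled here, and the IFNγ dose they received is only as certain as that label. In bulk libraries such as these, fewer cells expressing a gene and less RNA per cell cannot be told apart.

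**Figure D1:**
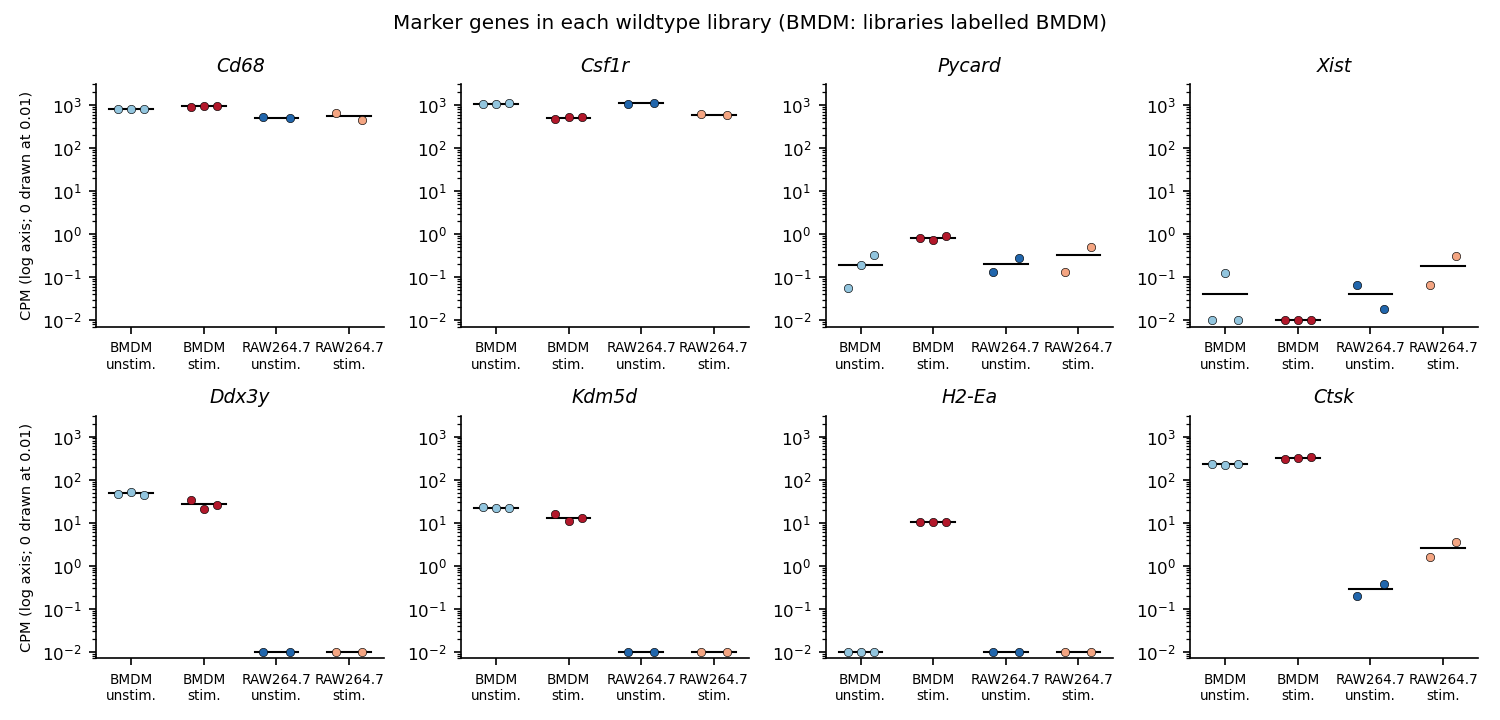
CPM (log axis, 0 drawn at 0.01) of 8 marker genes in each of the 10 wildtype libraries; points are libraries and bars are group means. The macrophage genes Cd68 and Csf1r are high in all libraries and Pycard is under 1 CPM in all. Ddx3y, Kdm5d and Ctsk separate the BMDM-labelled from the RAW264.7 libraries, while H2-Ea is present in the stimulated BMDM-labelled libraries alone.

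Stimulation induced 3166 genes (18.2% of those tested) and repressed 2998 (17.2%) in the BMDM-labelled cells, and induced 2376 (13.7%) and repressed 2340 (13.4%) in RAW264.7 cells. These calls took an adjusted p under 0.05 in edgeR's quasi-likelihood test and a log2 fold change past 1 in size. Of the induced genes 1562 were shared, which is 49.3% of the BMDM-labelled list and 65.7% of the RAW264.7 list. Of the repressed genes 1585 were shared, 52.9% and 67.7% of the lists. Across the 17398 genes the responses had a Pearson r of 0.696 and a Spearman rho of 0.642. Across 8641 protein-coding genes with a mean log2 CPM over 3 the values were 0.833 and 0.77. Genes are not independent replicates, so these coefficients carry no p.

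The difference itself passed the same thresholds for 2407 genes (13.8%), 1253 of them more positive in the BMDM-labelled cells (7.2%) and 1154 more positive in RAW264.7 cells (6.63%). The counts of called differences in each gene list below are to be read beside these shares. A response is called specific here when it was called in one set, was not called that way in the other, and the difference was called too. By this rule 479 genes were induced and 369 repressed specifically in the BMDM-labelled cells, and 313 were induced and 277 repressed specifically in RAW264.7 cells. A further 64 genes moved in opposite directions. Another 1086 induced and 1019 repressed genes of the BMDM-labelled cells, and 476 induced and 439 repressed genes of RAW264.7, were called in one set without a called difference. They cannot be assigned to one set. The test of the difference shares a gene's spread over both tables. The common dispersion, the spread beyond counting noise, was 0.0195 in that joint fit. It was 0.00831 in the BMDM-labelled and 0.0482 in the RAW264.7 table alone. The standard error (SE) of a difference can therefore fall below that of the RAW264.7 response. SEs and p-values of the differences may be too small for the RAW264.7 spread. With a spread estimated for each table separately (limma voom), 2072 of the 2407 differences (86.1%) were called again in the same direction. Without RAW264.7 unstimulated library B, 1833 (76.2%) were called again and the opposite class fell to 40 genes.

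**Figure D2:**
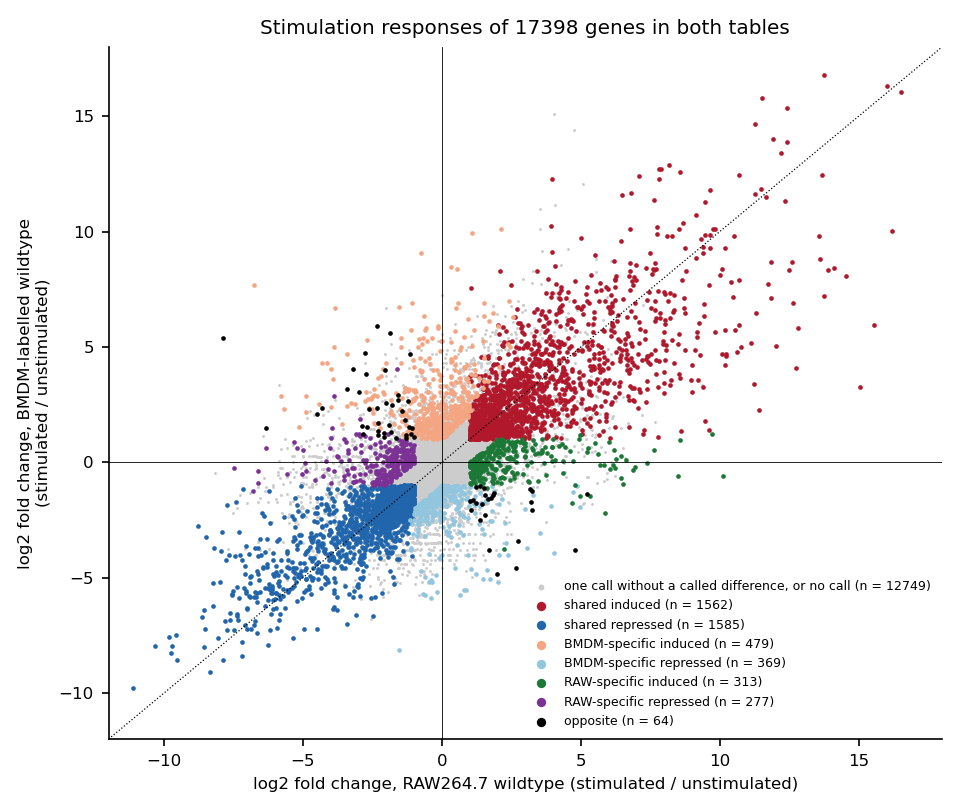
Response of each of the 17398 genes in RAW264.7 cells (x, log2 fold change) and BMDM-labelled cells (y, log2 fold change), coloured by class; the dotted line marks equal responses. The 1562 shared induced and 1585 shared repressed genes lie around the dotted line, and the specific classes lie along the axes.

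The 5 shared induced genes with the largest smaller response, taken among well-expressed protein-coding genes, were Upp1, Ccl5, Batf2, Zbp1 and Gbp7. Upp1, the uridine phosphorylase, was at 0.333, 0.311 and 0.195 CPM in unstimulated and 303, 327 and 334 CPM in stimulated BMDM-labelled cells, and at 0.193 and 0.352 against 229 and 338 CPM in RAW264.7. The 2 sets overlapped in both states. Its response was 10.11 ± 0.15 (SE) and 9.82 ± 0.36 on the log2 scale, and the difference of 0.32 ± 0.51 was not called (adjusted p = 0.7, edgeR quasi-likelihood). Batf2, a transcription factor of the interferon response, rose from 0.944, 1.12 and 1.1 to 530, 552 and 603 CPM in the BMDM-labelled cells and from 0.321 and 0.0741 to 128 and 60.3 CPM in RAW264.7. Its level was lower in RAW264.7 in both states, and the responses of 9.05 ± 0.11 and 9.39 ± 0.66 did not differ beyond their error (-0.35 ± 0.68). Ccl5 showed the limits of 2 replicates. It reached 979, 1052 and 1101 CPM in stimulated BMDM-labelled cells and 154 and 1103 CPM in the 2 stimulated RAW264.7 libraries. Without the second of these the difference was 3.70 and called, and without unstimulated library B it was -1.44 and not called.

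Components of the IFNγ pathway rose in both sets, and the transcription factors at its centre rose more in the BMDM-labelled cells. Of 18 genes of the IFNγ receptor and its signalling, 13 were induced and 0 repressed in each set, and the difference was called for 7, 5 more positive in BMDM-labelled and 2 in RAW264.7 cells. The median difference was 0.73, against -0.05 over all genes tested. Without unstimulated library B the counts were again 5 and 2, with a median of 0.18, and without unstimulated library A they were 9 and 1, with a median of 1.03. Irf1, the transcription factor that carries much of the IFNγ response, went from 10.3, 11 and 11.7 CPM to 1791, 1751 and 1598 CPM in the BMDM-labelled cells and from 4.56 and 5.83 CPM to 170 and 216 CPM in RAW264.7. All stimulated BMDM-labelled libraries stood far above both stimulated RAW264.7 libraries. The difference was 2.11 ± 0.27 (adjusted p = 1.4e-05), and leaving out any of the 10 libraries kept the call. Irf8, a regulator of macrophage lineage genes, differed by 1.27 ± 0.17, Stat2 by 1.32 ± 0.26 and the kinase gene Jak2 by 1.43 ± 0.29, each with the call kept in all 10 leave-one-out fits.

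Ifngr2 and Socs3 had the more positive response in RAW264.7. Ifngr2, the signalling chain of the IFNγ receptor, stood at 147, 139 and 142 CPM in unstimulated and 116, 127 and 119 CPM in stimulated BMDM-labelled cells. In RAW264.7 it went from 15 and 19.5 CPM to 35.2 and 38.5 CPM. The RAW264.7 level therefore stayed below the BMDM-labelled level in both states, while its response was the more positive one, with a difference of -1.32 ± 0.14 (adjusted p = 1.9e-06). Socs3, an inhibitor of cytokine signalling, rose from 36.9 to 41.1 CPM at rest to 1444 to 1731 CPM in the BMDM-labelled cells and from 5.39 and 9.89 to 738 and 776 CPM in RAW264.7. Its difference of -1.21 ± 0.26 was -0.88, not called, without unstimulated library A.

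The GTPases that IFNγ induces for defence inside the cell rose further in the BMDM-labelled cells where the difference was called. All 18 guanylate-binding proteins (GBPs) and immunity-related GTPases were induced in the BMDM-labelled cells and 17 in RAW264.7 cells, and the difference was called for 8, all more positive in the BMDM-labelled cells. The median difference was 3.01, or 2.99 with genes near 0 at their bounds. In 12 of the 18 genes a group held at most 3 counts in every library, so that a fold change is only a lower bound. Gbp2b was at 4614, 4212 and 4440 CPM in stimulated BMDM-labelled cells and 225 and 303 CPM in stimulated RAW264.7. Iigp1 was at 2623, 2069 and 2168 CPM against 305 and 405 CPM, from 0 or 1 count in every unstimulated library. Its induction was at least 12528-fold and at least 2861-fold, and no difference of the responses could be estimated. Gbp11 reached 12.8 to 19 CPM in stimulated BMDM-labelled cells and 0 and 0.101 CPM in stimulated RAW264.7, which left RAW264.7 within 3 counts in both states.

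Igtp (Irgm3), which has counts in every group, rose from 3.22, 2.92 and 2.4 CPM to 2242, 2220 and 2266 CPM in the BMDM-labelled cells. In RAW264.7 it rose from 0.514 and 2 CPM to 96.9 and 160 CPM. Unstimulated levels were of the same order in both sets, and stimulated levels did not come near each other. The difference was 3.22 ± 0.48 (adjusted p = 7.5e-05). Irgm1 differed by 2.81 ± 0.34, Irgm2 by 2.79 ± 0.43 and Ifi47 by 3.34 ± 0.29. Library choice mattered here. In the 5 genes of this list that could be compared, the unstimulated RAW264.7 library B was higher than A, by a median of 2.41-fold. Without B the called differences of the list went from 8 to 2, with a median of 1.72. Irgm1 (2.11) and Ifi47 (2.99) kept their calls, while Igtp (1.66) and Irgm2 (1.78) did not.

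Calls among antiviral interferon-stimulated genes depended on the same library. Of 30 genes, 29 were induced in the BMDM-labelled cells and 27 in RAW264.7. The difference was called for 11, 10 more positive in the BMDM-labelled cells and 1 in RAW264.7, with a median of 1.18. Without unstimulated library B these counts were 1 and 2, and the median was -0.08. Without unstimulated library A they were 16 and 0, and the median was 1.71. Rsad2 (viperin), which blocks viral replication, rose from 1.61, 2.11 and 1.82 CPM to 5071, 4778 and 4882 CPM in the BMDM-labelled cells. In RAW264.7 it rose from 0.45 and 2.19 CPM to 352 and 261 CPM. Its stimulated level was separated by more than the spread of either set, and its difference was 3.81 ± 0.65 (adjusted p = 0.00025). It fell to 1.99, not called, without library B. Cmpk2, its neighbour in the genome and in function, differed by 4.75 ± 0.89 and by 3.14, not called, without B. Slfn4 was the gene of the list called the other way. It rose from 41.7 to 51.8 CPM to 271 to 344 CPM in the BMDM-labelled cells and from 150 and 200 CPM to 5572 and 2029 CPM in RAW264.7, a difference of -1.75 ± 0.50 that was -0.83 without stimulated library A and -1.54 without unstimulated library A, neither called. Zbp1, the nucleic acid sensor, was induced to 263, 277 and 278 CPM and to 232 and 236 CPM. These levels were close, and its difference of 0.62 ± 0.56 was not called.

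All 17 MHC class I and immunoproteasome genes were induced in them and 16 in RAW264.7, with 9 differences called, all in the same direction, and a median difference of 1.00. Without library B 7 were called, and without unstimulated library A 14. Tap1, a subunit of the transporter that loads peptides onto class I molecules, rose from 19.6, 22.2 and 22.5 CPM to 1098, 1132 and 1164 CPM in the BMDM-labelled cells. In RAW264.7 it rose from 27.2 and 39.7 CPM to 435 and 494 CPM. RAW264.7 was higher at rest and lower after stimulation. The difference was 1.94 ± 0.22 (adjusted p = 3.4e-06), and it was 1.63 and called without B. Nlrc5, the class I transactivator, differed by 1.34 ± 0.15, Psmb8 by 1.38 ± 0.20 and Tap2 by 1.32 ± 0.19. The class I heavy chain gene H2-D1 was not called, with a difference of 0.18 ± 0.28.

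Of 13 class II genes, 7 had enough counts to be tested, of which 7 were induced in the BMDM-labelled cells, 2 were induced and 1 repressed in RAW264.7, and 4 had a called difference, all more positive in the BMDM-labelled cells (median 1.59). Without unstimulated library B 4 were called again (median 1.92). Ciita, the class II transactivator, was at 0.111, 0 and 0.0649 CPM in unstimulated and 20.1, 24.9 and 23.7 CPM in stimulated BMDM-labelled cells, an induction of at least 125-fold. RAW264.7 had it at 0.385 and 0.037 CPM at rest and 0 and 0.456 CPM after stimulation, with no direction. H2-Eb1 went from 0 in every unstimulated library to 17.1, 17.5 and 18.9 CPM in the BMDM-labelled cells and to 0.0659 and 0.101 CPM in RAW264.7. H2-Aa reached 12.9 to 13.5 CPM in the BMDM-labelled cells and had 0 counts in all 4 RAW264.7 libraries. Cd74, the invariant chain, did rise in both, from 145 to 150 CPM to 975 to 1097 CPM and from 234 and 214 CPM to 558 and 915 CPM, with a difference of 1.08 ± 0.21 that was 0.79, not called, without stimulated library A.

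Of 25 receptors and regulators of LPS signalling, 13 were induced in the BMDM-labelled cells and 16 in RAW264.7, with 0 repressed, and the difference was called for 4, 1 more positive in BMDM-labelled and 3 in RAW264.7 cells (median -0.24). Over all genes tested the difference was called for 13.8%, and the count for this list is near that share. Nfkbia, the inhibitor that NF-kB itself induces, rose by 2.43 ± 0.08 and 2.67 ± 0.27, with a difference of -0.24 ± 0.24. Cd14, the LPS co-receptor, was at 1254, 1155 and 1243 CPM in unstimulated and 1710, 1704 and 1889 CPM in stimulated BMDM-labelled cells. In RAW264.7 it went from 486 and 476 CPM to 2203 and 2806 CPM. RAW264.7 thus started below and ended above the BMDM-labelled cells, with a difference of -1.84 ± 0.16 (adjusted p = 1.9e-07). Bcl3, a nuclear partner of NF-kB, was at 42.8 to 55.8 CPM in all BMDM-labelled libraries and rose from 3.72 and 3.87 CPM to 40.3 and 22.7 CPM in RAW264.7 (difference -3.15 ± 0.25).

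Chemokines were called in both directions. Of 22 chemokine genes 18 were tested, of which 16 were induced and 1 repressed in the BMDM-labelled cells and 11 induced and 1 repressed in RAW264.7. A difference was called for 8, 3 more positive in the BMDM-labelled and 5 in RAW264.7 cells, with a median of -0.57, or -0.49 with genes near 0 at their bounds. The sign of this median was not stable. It was 0.59 with voom, 0.79 without a filter, -1.94 after filterByExpr and 1.43 without stimulated RAW264.7 library B, which gave 5 and 6 called differences. Cxcl10, an interferon-induced ligand of CXCR3, was at 3.72, 3.66 and 4.54 CPM in unstimulated and 471, 476 and 491 CPM in stimulated BMDM-labelled cells. The RAW264.7 libraries held it at 0.835 and 1.17 CPM and at 1.32 and 1.72 CPM. It rose steeply in every BMDM-labelled library and stayed near its resting level in RAW264.7. The response was 6.92 ± 0.09 in the former and 0.58 ± 0.49 in the latter, and the difference of 6.39 ± 0.32 (adjusted p = 5.3e-10) was kept in all 10 leave-one-out fits. Cxcl9, a second CXCR3 ligand, was at 0 in all unstimulated libraries, at 274.0, 264.9 and 299.4 CPM in stimulated BMDM-labelled cells and at 0 and 0.152 CPM in stimulated RAW264.7. Its induction in the BMDM-labelled cells was at least 1531-fold, and it was within 3 counts in RAW264.7.

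Cxcl2, a neutrophil-attracting chemokine that NF-kB drives, took the reverse course. It was at 123, 148 and 135 CPM in unstimulated and 3658, 3647 and 3761 CPM in stimulated BMDM-labelled cells. In RAW264.7 it was at 3.15 and 2.61 CPM at rest and 4268 and 4630 CPM after stimulation. The sets were far apart at rest and close after stimulation, and the difference was -5.86 ± 0.18 (adjusted p = 6.1e-13). Ccl3 rose from 276 to 313 CPM to 2002 to 2254 CPM in the BMDM-labelled cells and from 43.4 and 47.9 CPM to 3548 and 5995 CPM in RAW264.7, and the difference was -3.83 ± 0.23. Ccl4 differed by -1.94 ± 0.20. Ccl2, the monocyte chemokine, was at 0.128 and 0 CPM in unstimulated RAW264.7 and at 2274 and 94.7 CPM after stimulation, so the 2 stimulated libraries disagreed on its level. In the BMDM-labelled cells it was at 272 to 286 CPM at rest and 2574 to 2777 CPM after stimulation.

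The promoters of Cxcl10, Slamf8 and Cxcl2 are shown as examples, chosen with their values known, though other genes had larger differences in each direction. The first 2 are of the class induced specifically in the BMDM-labelled cells, though Slamf8 rose in RAW264.7 too without a call. The third was induced more in RAW264.7. The sequences are from RefSeq, on GRCm38.p6, from 250 bases before to 50 bases after the annotated start, 5′ to 3′ along the gene. They lie at chr5:92348840-92349139 on the minus strand for Cxcl10, chr1:172590519-172590818 on the minus strand for Slamf8 and chr5:90903649-90903948 on the plus strand for Cxcl2. Capitals mark matches, searched on both strands, to an NF-kB motif (GGG and CC with 5 bases of any kind between them) and to the core of the interferon-stimulated response element, ISRE (GAAA and again GAAA, with 2 bases of any kind between them).
Cxcl10: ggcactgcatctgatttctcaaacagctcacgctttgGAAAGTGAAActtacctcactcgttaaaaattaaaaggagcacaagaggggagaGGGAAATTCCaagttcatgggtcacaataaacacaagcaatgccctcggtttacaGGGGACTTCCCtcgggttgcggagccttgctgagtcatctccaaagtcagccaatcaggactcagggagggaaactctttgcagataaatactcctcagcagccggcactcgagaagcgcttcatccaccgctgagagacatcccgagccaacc
Slamf8: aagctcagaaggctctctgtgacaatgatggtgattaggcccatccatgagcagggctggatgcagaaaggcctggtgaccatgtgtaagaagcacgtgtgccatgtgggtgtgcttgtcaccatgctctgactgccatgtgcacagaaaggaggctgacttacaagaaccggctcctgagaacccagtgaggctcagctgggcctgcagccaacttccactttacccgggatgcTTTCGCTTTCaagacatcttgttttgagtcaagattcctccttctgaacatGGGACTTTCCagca
Cxcl2: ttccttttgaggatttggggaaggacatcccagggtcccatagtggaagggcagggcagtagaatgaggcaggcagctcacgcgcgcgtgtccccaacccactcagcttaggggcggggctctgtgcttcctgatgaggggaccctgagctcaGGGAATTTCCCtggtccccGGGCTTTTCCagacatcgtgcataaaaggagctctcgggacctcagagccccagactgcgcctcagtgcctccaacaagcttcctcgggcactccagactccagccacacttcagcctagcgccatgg
The Cxcl10 window held 1 ISRE core and 3 NF-kB matches, 2 of which overlap each other. The Slamf8 window held 1 ISRE core and 1 NF-kB match, and the Cxcl2 window 3 NF-kB matches, 2 of them overlapping, and no ISRE core. Of 32851 windows of this length, 3.44% held an ISRE core, 50.8% an NF-kB match and 8.3% the gamma-activated site TTCNNNGAA, which none of the 3 windows held. Among the 12673 windows of protein-coding genes tested, 3.24% held an ISRE core, 66% an NF-kB match and 6.91% a gamma-activated site. A gamma-activated site and an ISRE core overlapped in 14 of these windows. A match is a description of the letters and not a binding site. Shares were not compared between classes, because windows were found for only 91 of 127 protein-coding genes of the shared induced class with the larger response in BMDM-labelled cells and 125 of 167 with the larger response in RAW264.7 cells, which voids such a check.

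Of 26 cytokine genes tested, 22 were induced in the BMDM-labelled cells and 21 in RAW264.7, with 1 repressed in each. The difference was called for 13, 5 more positive in BMDM-labelled and 8 in RAW264.7 cells, and the median was -1 on the log2 scale. Il15, which supports NK and memory T cells and is induced by interferon, rose from 1.78, 1.74 and 2.01 CPM to 108, 101 and 113 CPM in the BMDM-labelled cells. In RAW264.7 it rose from 4.94 and 5.61 CPM to 14.5 and 33.9 CPM. RAW264.7 was the higher at rest and the lower after stimulation, with a difference of 3.67 ± 0.40 (adjusted p = 2.6e-06). Csf1, the gene of M-CSF, differed by 2.84 ± 0.47 and Tnfsf9 by 1.41 ± 0.26.

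Among the 8 more positive in RAW264.7 were Tnf, Osm, Il1rn, Spp1 and Csf3. Tnf was at 404, 415 and 422 CPM in unstimulated and 5025, 4995 and 4346 CPM in stimulated BMDM-labelled cells. In RAW264.7 it rose from 42.7 and 52.9 CPM to 1644 and 2127 CPM. Its level was lower in RAW264.7 in both states, yet the response was larger, by a difference of -1.76 ± 0.22 (adjusted p = 9.3e-06). Osm differed by -3.18 ± 0.27 and Il1rn, the IL-1 receptor antagonist, by -2.87 ± 0.48. Spp1 (osteopontin) was at 2312 to 3282 CPM in all BMDM-labelled libraries and rose from 2098 and 2585 CPM to 12876 and 8671 CPM in RAW264.7 (difference -2.52 ± 0.34). Csf3, the gene of G-CSF, rose from 0.584 to 1.39 CPM to 983 to 1069 CPM in the BMDM-labelled cells, and from 0 and 0.0185 CPM to 1406 and 1551 CPM in RAW264.7, where the induction was at least 11910-fold. Il6 was at 34.8, 28.2 and 28.2 CPM in stimulated BMDM-labelled cells and 28.3 and 162 CPM in stimulated RAW264.7, from at most 2 counts in any unstimulated library. Il12b was at 0.295 to 1.16 CPM and at 0.923 and 26.2 CPM.

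Nos2, the gene of iNOS, was induced in both sets. It was at 1.39, 1.62 and 1.69 CPM in unstimulated and 11298, 12336 and 12024 CPM in stimulated BMDM-labelled cells. RAW264.7 had it at 3.72 and 26.4 CPM and at 3682 and 5308 CPM. The unstimulated RAW264.7 libraries lay several-fold apart. The difference was 4.75 ± 0.74 (adjusted p = 0.00017) and fell to 2.66, still called, without library B. Of 14 genes of nitric oxide and arginine metabolism, 6 were induced and 3 repressed in the BMDM-labelled cells and 5 and 4 in RAW264.7, with 3 and 2 called differences and a median of 0.08, or -0.23 without library B. Ass1, which rebuilds arginine from citrulline, was at 3.5 to 4.8 CPM in unstimulated and 27.1, 40.9 and 41.6 CPM in stimulated BMDM-labelled cells and at most 0.185 CPM in RAW264.7. Slc7a2, an arginine transporter, reached 373 to 403 CPM in stimulated BMDM-labelled cells and at most 0.456 CPM in RAW264.7. Odc1, the first enzyme of polyamine synthesis, responded more in RAW264.7. It rose from 576 to 616 CPM to 1959 to 2017 CPM in the BMDM-labelled cells and from 519 and 407 CPM to 11617 and 11992 CPM in RAW264.7, a difference of -2.94 ± 0.18.

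Enzymes of itaconate, prostaglandin and reactive oxygen metabolism numbered 14, of which 9 were induced and 2 repressed in the BMDM-labelled cells and 7 and 1 in RAW264.7. A difference was called for 7, 2 more positive in BMDM-labelled and 5 in RAW264.7 cells, and its median was -0.20, or 0.27 with the gene near 0 at its bound. Without stimulated RAW264.7 library A the median was 0.23, and without stimulated library B the counts were 0 and 4. Ptgs2 (COX-2), the inducible enzyme of prostaglandin synthesis, was at 32.3, 26.8 and 30 CPM in unstimulated and 4382, 3863 and 4043 CPM in stimulated BMDM-labelled cells. The RAW264.7 libraries held it at 1.61 and 1.98 CPM and at 4299 and 9429 CPM. The gap at rest had closed after stimulation, and the difference was -4.74 ± 0.39 (adjusted p = 1.4e-07). Ptges, the next enzyme of the pathway, differed by -2.49 ± 0.41, and by -1.66 without stimulated library A. Acod1, which makes itaconate, rose to 15760 to 16381 CPM and to 5179 and 5594 CPM, with a difference of -1.02 ± 0.19 that was -0.96 without stimulated library B and -0.75 without unstimulated library A, neither called. Cybb, the catalytic subunit of the phagocyte NADPH oxidase, differed by 1.36 ± 0.31, and by 0.98, not called, without stimulated library B.

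**Figure D3:**
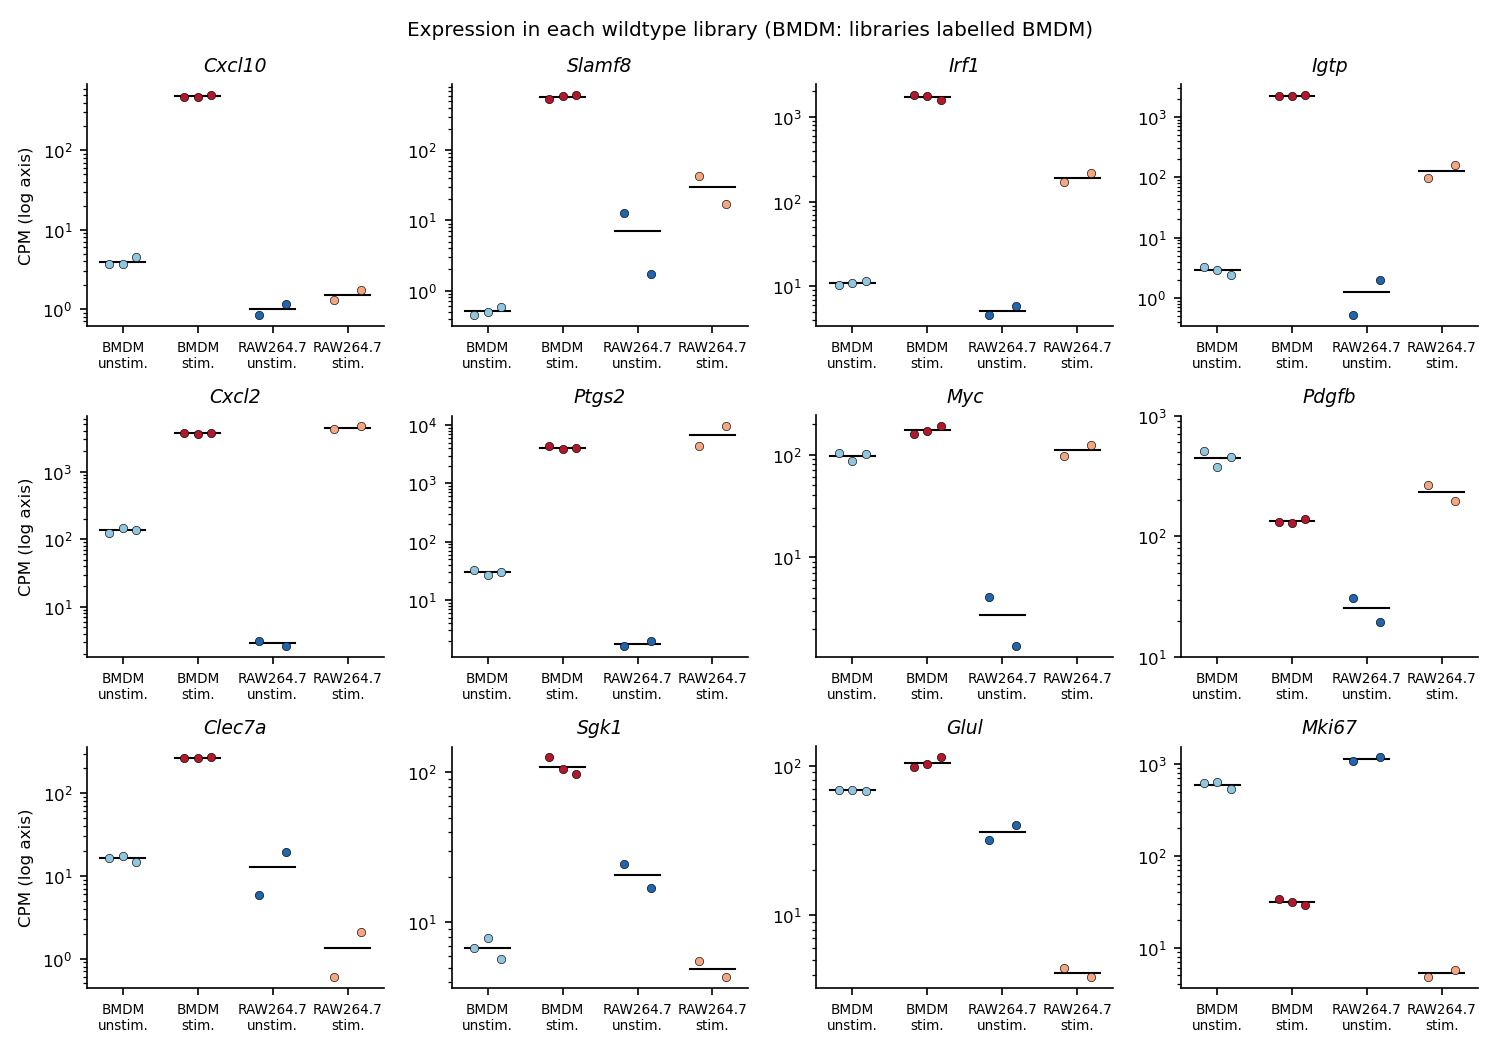
CPM (log axis, range set for each gene) of 12 genes in each of the 10 wildtype libraries; points are libraries and bars are group means. Cxcl10, Slamf8, Irf1 and Igtp rose further in the BMDM-labelled cells, Cxcl2, Ptgs2 and Myc started lower and had the larger response in RAW264.7, and Pdgfb, Clec7a and Sgk1 moved in opposite directions.

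By the rule for named genes the BMDM-specific induced class was led by Slamf8 and Cxcl10, followed by Egr1, F10 and Tent5c. Slamf8, a receptor of the SLAM family that is known to restrain macrophage activation, was at 0.444, 0.497 and 0.584 CPM in unstimulated and 535, 587 and 601 CPM in stimulated BMDM-labelled cells. In RAW264.7 it was at 12.6 and 1.7 CPM and at 42.4 and 17.1 CPM. Slamf8 thus rose in RAW264.7 too, but its libraries of each state lay several-fold apart and the response was not called there. Every stimulated BMDM-labelled library stood far above them. The difference was 7.87 ± 0.90 (adjusted p = 4.3e-06) and ranged from 6.04 to 8.90 over the leave-one-out fits. Egr1, an immediate early transcription factor, rose from 130, 156 and 148 CPM to 1168, 1039 and 805 CPM in the BMDM-labelled cells and was at 0.203 to 2.41 CPM in all RAW264.7 libraries (difference 4.32 ± 0.50). Tent5c, a cytoplasmic poly(A) polymerase, differed by 3.44 ± 0.52. F10, coagulation factor X, differed by 3.51 ± 0.67, and by 5.61 without stimulated library A.

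The genes repressed specifically in the BMDM-labelled cells had smaller differences. Fnbp1l, which shapes membranes for endocytosis, fell from 188, 196 and 174 CPM to 41, 32.2 and 32.7 CPM in the BMDM-labelled cells. RAW264.7 had it at 159 and 98.7 CPM and at 185 and 313 CPM. Every stimulated RAW264.7 library stood above every stimulated BMDM-labelled one, with a difference of -3.35 ± 0.41 (adjusted p = 8.4e-06). Dlg4 fell from 10.5 to 12.7 CPM to 1.51 to 2.38 CPM in the BMDM-labelled cells and was at 14.3 to 21.7 CPM in RAW264.7 (-2.96 ± 0.23). Plekhg3 differed by -2.45 ± 0.22, and Acy1, an aminoacylase, by -3.07 ± 0.52 with all libraries and by -5.58 without unstimulated library B. Tfcp2l1, a transcription factor, differed by -3.23 ± 0.70, and by -1.72, not called, without stimulated library A.

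The named genes induced specifically in RAW264.7 were Fabp4, Pla2g5, Myc, H1f2 and Lims2. Fabp4, a fatty acid carrier, was at 14.7, 15.8 and 13.2 CPM in unstimulated and 13.2, 12.6 and 14.5 CPM in stimulated BMDM-labelled cells. In RAW264.7 it rose from 0.642 and 1.31 CPM to 46.3 and 65.7 CPM. The BMDM-labelled groups overlapped and the RAW264.7 groups did not, and the difference was -5.77 ± 0.52 (adjusted p = 3.4e-07). Myc rose in both sets, but its rise in the BMDM-labelled cells, from 85.8 to 104 CPM at rest to 159 to 188 CPM, was not called. In RAW264.7 it rose from 4.11 and 1.35 CPM to 96.9 and 123 CPM (-4.75 ± 0.37). Pla2g5, a secreted phospholipase, differed by -5.21 ± 0.39, the linker histone gene H1f2 by -4.34 ± 0.36 and Lims2, an adhesion adaptor, by -4.03 ± 0.38. All 5 were lower in unstimulated RAW264.7 than in any BMDM-labelled library, and their calls were kept in all 10 leave-one-out fits.

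Among genes repressed specifically in RAW264.7 cells, Hacd4, an enzyme of very-long-chain fatty acid synthesis, fell from 19.5 and 16.2 CPM to 0.791 and 0.152 CPM, while in the BMDM-labelled cells it was at 13.9 to 15.3 CPM at rest and 25.3 to 27.7 CPM after stimulation. The sets were close at rest and apart after stimulation. The difference was 6.20 ± 0.49 (adjusted p = 7.4e-08). Glul, glutamine synthetase, fell from 31.8 and 40 CPM to 4.42 and 3.85 CPM in RAW264.7 and was at 67.8 to 69.2 CPM and 97.6 to 113 CPM in the BMDM-labelled cells (3.74 ± 0.17). St6gal1, a sialyltransferase, differed by 3.84 ± 0.23 and the exchanger gene Slc24a5 by 2.91 ± 0.27. Gstm1, a glutathione transferase, differed by 3.39 ± 0.58, and by 5.71 without stimulated library A.

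Of the 64 genes called in opposite directions, 39 rose in the BMDM-labelled and fell in RAW264.7 cells and 25 did the reverse. Clec7a (dectin-1), the receptor of fungal beta-glucan, rose from 16.6, 17.5 and 14.7 CPM to 263, 267 and 269 CPM in the BMDM-labelled cells. In RAW264.7 it fell from 5.84 and 19.4 CPM to 0.593 and 2.08 CPM. The unstimulated groups overlapped, and the stimulated groups did not come near each other. The responses were 4.03 ± 0.16 and -3.22 ± 0.70 and the difference was 7.26 ± 0.56 (adjusted p = 5.4e-08). Sgk1, a serum- and glucocorticoid-induced kinase, rose from 5.71 to 7.83 CPM to 97.3 to 126 CPM in the BMDM-labelled cells and fell from 24.3 and 16.9 CPM to 5.54 and 4.3 CPM in RAW264.7 (6.07 ± 0.35). Egr2, which is linked to alternative activation, differed by 4.47 ± 0.43 and Tob1, an antiproliferative gene, by 4.26 ± 0.22. Pdgfb, a growth factor chain, moved the other way. It fell from 507, 372 and 455 CPM to 131, 129 and 140 CPM in the BMDM-labelled cells and rose from 31.2 and 19.5 CPM to 268 and 195 CPM in RAW264.7, a difference of -4.95 ± 0.32 (adjusted p = 8.1e-09).

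All 34 mitosis genes were repressed in each set, and of 34 DNA replication genes 32 were repressed in the BMDM-labelled cells and 33 in RAW264.7. The study describes BMDMs as not proliferating, stimulated or not, so this fall in the BMDM-labelled cells goes against their label. The genes repressed most in both sets, by the rule for named genes, were Ccna2, Plk1, Pclaf, Kntc1 and Cdc20. Ccna2 (cyclin A2) fell from 189, 187 and 193 CPM to 0.604, 0.722 and 0.516 CPM in the BMDM-labelled cells and from 124 and 278 CPM to 0.0659 and 0.355 CPM in RAW264.7. The unstimulated ranges overlapped, but the 2 unstimulated RAW264.7 libraries lay apart, on both sides of the BMDM-labelled level. Its difference of 1.49 ± 0.79 was not called, but was 1.97 and called without unstimulated RAW264.7 library A. Plk1, a mitotic kinase, fell by 7.29 ± 0.17 and 7.47 ± 0.25 on the log2 scale.

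Within this shared fall, 10 mitosis genes had a called difference, 9 of them falling further in RAW264.7 (median 0.59 over the list). Mki67, the proliferation antigen Ki-67, was at 618, 636 and 540 CPM in unstimulated and 34.1, 31.7 and 29.4 CPM in stimulated BMDM-labelled cells. The RAW264.7 libraries held it at 1094 and 1182 CPM and at 4.75 and 5.72 CPM. RAW264.7 was higher at rest and lower after stimulation, with a difference of 3.52 ± 0.36 (adjusted p = 1.3e-06). Foxm1, a transcription factor of mitotic genes, differed by 1.90 ± 0.18, and Ccnb2 was the gene called the other way (-2.29 ± 0.28). In DNA replication 3 differences were more positive in BMDM-labelled and 4 in RAW264.7 cells, with a median of 0.14. Without stimulated RAW264.7 library A these counts were 8 and 3, and the median was 0.48. Pcna, the polymerase clamp, was at 232 to 237 CPM at rest and 309.6 to 346 CPM after stimulation in the BMDM-labelled cells but fell from 325 and 311 CPM to 168 and 134 CPM in RAW264.7 (1.55 ± 0.13). Of 16 cell cycle inhibitors and p53 targets, 7 were induced and 4 repressed in the BMDM-labelled cells and 7 and 2 in RAW264.7, with 1 difference more positive in BMDM-labelled and 4 in RAW264.7 cells (median -0.73). The latter count was 2 without stimulated BMDM-labelled library C and 2 without unstimulated RAW264.7 library A. Cdkn1a (p21) rose from 166 to 186 CPM to 751 to 843 CPM and from 69 and 118 CPM to 950.2 and 1228 CPM, a difference of -1.38 ± 0.25.

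Sterol synthesis fell in both sets, with 17 of 20 genes repressed in the BMDM-labelled cells, 13 in RAW264.7 and 0 induced in either. The difference was called for 1 gene in the BMDM-labelled and 4 in the RAW264.7 direction (median -0.38). Fdps, the farnesyl diphosphate synthase, fell from 6.29 to 6.61 CPM to 0 to 0.361 CPM in the BMDM-labelled cells and from 6.68 and 8.43 CPM to 0.857 and 0.962 CPM in RAW264.7 (-2.34 ± 0.58, and -4.16 without stimulated BMDM-labelled library B). Its stimulated BMDM-labelled level is a few counts per library at most, so the size of this difference is uncertain. Of 13 LXR targets and sterol efflux genes, 3 were induced and 4 repressed in the BMDM-labelled cells and 4 and 1 in RAW264.7, with 3 called differences each way and a median of 0.17. The median was -0.25 without stimulated RAW264.7 library B and -0.24 without unstimulated library A, and without unstimulated library B 5 and 2 differences were called. Abca1, the cholesterol exporter, rose from 93.3, 97.5 and 95.2 CPM to 245, 237 and 217 CPM in the BMDM-labelled cells. In RAW264.7 it was at 37.6 and 26.6 CPM and at 6.72 and 20.6 CPM. The RAW264.7 fall was not called (-1.22 ± 0.44, adjusted p = 0.057), and the difference was 2.49 ± 0.38.

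Hypoxia-responsive genes were induced more widely in the BMDM-labelled cells, 12 of 16 against 6 in RAW264.7, with 0 repressed. A difference was called for 7, all more positive in the BMDM-labelled cells, with a median of 1.34, or 1.06 with genes near 0 at their bounds. Without stimulated RAW264.7 library A 5 were called, with a median of 0.85, and Ero1a (1.28; 0.79 without it) and Ndrg1 (1.45; 0.88 without it) lost their calls. Without unstimulated library B 7 were called, and Ero1a (1.08) was not among them. Bnip3, a mitophagy receptor, rose from 50.2, 54.3 and 51.7 CPM to 299, 279 and 295 CPM in the BMDM-labelled cells. RAW264.7 had it at 196 and 199 CPM and at 234 and 497 CPM. RAW264.7 stood higher at rest, its 2 stimulated libraries lay on both sides of the BMDM-labelled level, and the difference was 1.59 ± 0.27 (adjusted p = 0.00024). The stimulated RAW264.7 library B was higher than A in 12 of 14 genes of this list, by a median of 1.90-fold. Of 20 glycolysis genes 7 were induced and 2 repressed in the BMDM-labelled cells and 3 and 2 in RAW264.7, with 2 called differences, both more positive in the BMDM-labelled cells (median 0.57). That is near the 13.8% called over all genes tested. Without stimulated RAW264.7 library B 7 and 1 were called. Hk2, a hexokinase, went from 112 to 126 CPM to 555 to 590.0 CPM and from 216 and 227 CPM to 327 and 378 CPM (1.59 ± 0.13).

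Of 17 genes of the unfolded protein and integrated stress response, 7 were induced and 8 repressed in the BMDM-labelled cells and 7 and 3 in RAW264.7. The difference was called for 7, all more positive in RAW264.7, with a median of -0.85, and for 9 without unstimulated library B. Without stimulated library B 4 were called in this direction and 1 in the other. Herpud1, which serves degradation of misfolded proteins, fell from 93.2, 86.8 and 87.1 CPM to 16.2, 19.8 and 21.2 CPM in the BMDM-labelled cells. The RAW264.7 libraries held it at 30.7 and 34.9 CPM and at 19 and 50.1 CPM, which overlap. The difference was -2.30 ± 0.34 (adjusted p = 6.6e-05), and -1.43 without stimulated library B. Xbp1, the transcription factor of the pathway, differed by -1.14 ± 0.12 and Asns, asparagine synthetase, by -1.48 ± 0.13. Ddit3 (CHOP) rose in both sets, by 3.81 ± 0.11 and 3.41 ± 0.18, with no called difference.

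Transcription factors of the macrophage lineage differed in 11 of 17 genes, 7 more positive in BMDM-labelled and 4 in RAW264.7 cells (median 0.20), against 13.8% of all genes tested. Spi1 (PU.1), the master regulator of myeloid cells, was at 510.0 to 542 CPM at rest and 412 to 439.8 CPM after stimulation in the BMDM-labelled cells and rose from 143 in both libraries to 378 and 390.5 CPM in RAW264.7 (-1.73 ± 0.13). Cebpd differed by -3.15 ± 0.22 and Irf5 by -1.35 ± 0.13. Maf and Tfec had 0 counts in all 4 RAW264.7 libraries, while Tfec was at 23.2 to 93.7 CPM in the BMDM-labelled cells.

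Of 14 tested scavenger and clearance receptors, 8 were induced and 1 repressed in the BMDM-labelled cells and 7 and 4 in RAW264.7, with 5 called differences in each direction (median -0.27). The median was 0.88 without stimulated RAW264.7 library A and 0.30 without unstimulated library B. Gpnmb, a glycoprotein of phagocytic macrophages, rose from 6362, 6364 and 6628 CPM to 18487, 20471 and 20397 CPM in the BMDM-labelled cells. In RAW264.7 it was at 2312 and 2288 CPM and at 1451 and 449 CPM, a fall that was not called (-1.28 ± 0.55, adjusted p = 0.099). The difference was 2.89 ± 0.48. Stab1 was at 39.2 to 45.5 CPM in all BMDM-labelled libraries and rose from 4.24 and 5.15 CPM to 109 and 49.8 CPM in RAW264.7 (-3.95 ± 0.34). Of 11 tested Fc and complement receptors and C3, 9 were induced in the BMDM-labelled cells and 8 in RAW264.7, with 3 called differences in each direction (median -0.22). Without unstimulated library B the counts were 1 and 3. Itgam (CD11b) rose from 36.7 to 41.8 CPM to 108 to 134 CPM and from 9.95 and 15.6 CPM to 358 and 372 CPM (-3.11 ± 0.28), and C3, the central complement protein, from 21.3 to 24.1 CPM to 509 to 560.1 CPM and from 7.96 and 10.9 CPM to 22.3 and 38.1 CPM (2.95 ± 0.26).

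Of 11 co-stimulation and checkpoint genes, 9 were induced in the BMDM-labelled cells and 8 in RAW264.7, with 2 differences more positive in the former and 3 in the latter. The median was 0.40, and -0.07 with genes near 0 at their bounds. Without unstimulated library B these counts were 0 and 4. The second count was 1 without stimulated RAW264.7 library B, unstimulated RAW264.7 library A, stimulated BMDM-labelled library A or B, or unstimulated BMDM-labelled library B or C. Cd80 rose from 11.9 to 14 CPM to 33.3 to 34.7 CPM in the BMDM-labelled cells and from 11.6 and 12.3 CPM to 144 and 139 CPM in RAW264.7 (-2.19 ± 0.36), a call kept in all 10 leave-one-out fits. Cd274 (PD-L1) rose to 2065 to 2362 CPM and to 282 and 431 CPM (1.15 ± 0.29), which was 1.02 without unstimulated library B and 0.90 without stimulated library A, neither called. Of 8 Toll-like receptors 4 were induced in each set and 1 was repressed in RAW264.7, with 1 called difference each way (median -0.04). Of 15 inflammasome and cell death genes, 10 were induced in the BMDM-labelled cells, and 6 were induced and 2 repressed in RAW264.7 (median 0.29, with 2 and 1 called differences, against 13.8% of all genes tested). The first count was 4 without stimulated RAW264.7 library A or B or unstimulated library A.

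Of 7 tested metalloproteinases and inhibitors 5 were induced in the BMDM-labelled cells, and 4 were induced and 1 repressed in RAW264.7, with 2 differences more positive in BMDM-labelled and 3 in RAW264.7 cells (median -1.59). The latter count was 1 without unstimulated RAW264.7 library A or B, and the median was 0.53 without a filter on low counts. Mmp12, macrophage elastase, reached 835 to 943 CPM in the BMDM-labelled cells and 26.1 and 748 CPM in the 2 stimulated RAW264.7 libraries. Its called difference of -4.76 ± 1.46 was -0.86 without the second of these, -4.55 without unstimulated library A and -5.54 without unstimulated library B, none of them called. Mmp14 was at 15.8 to 49.8 CPM in the BMDM-labelled cells and at 0 in all 4 RAW264.7 libraries. Against 13.8% of all genes tested, differences were called for 2 of 18 NRF2 targets (median 0.16), which is near that share, 2 of 24 V-ATPase and lysosome genes (median 0.02; 4 without stimulated RAW264.7 library A) and 1 of 35 complex I subunits (median 0.11). Of the NRF2 targets 11 were induced and 1 repressed in the BMDM-labelled cells and 10 and 3 in RAW264.7. Hmox1, heme oxygenase-1, rose by 4.43 ± 0.07 and 3.80 ± 0.27, with a difference of 0.63 ± 0.22 that was 1.10 and called without stimulated library A. Of the lysosomal genes 8 were induced and 1 repressed in the BMDM-labelled cells and 11 and 2 in RAW264.7. Of the complex I subunits 4 were called repressed and 0 induced in each set, with median responses of -0.50 and -0.66.

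**Figure D4:**
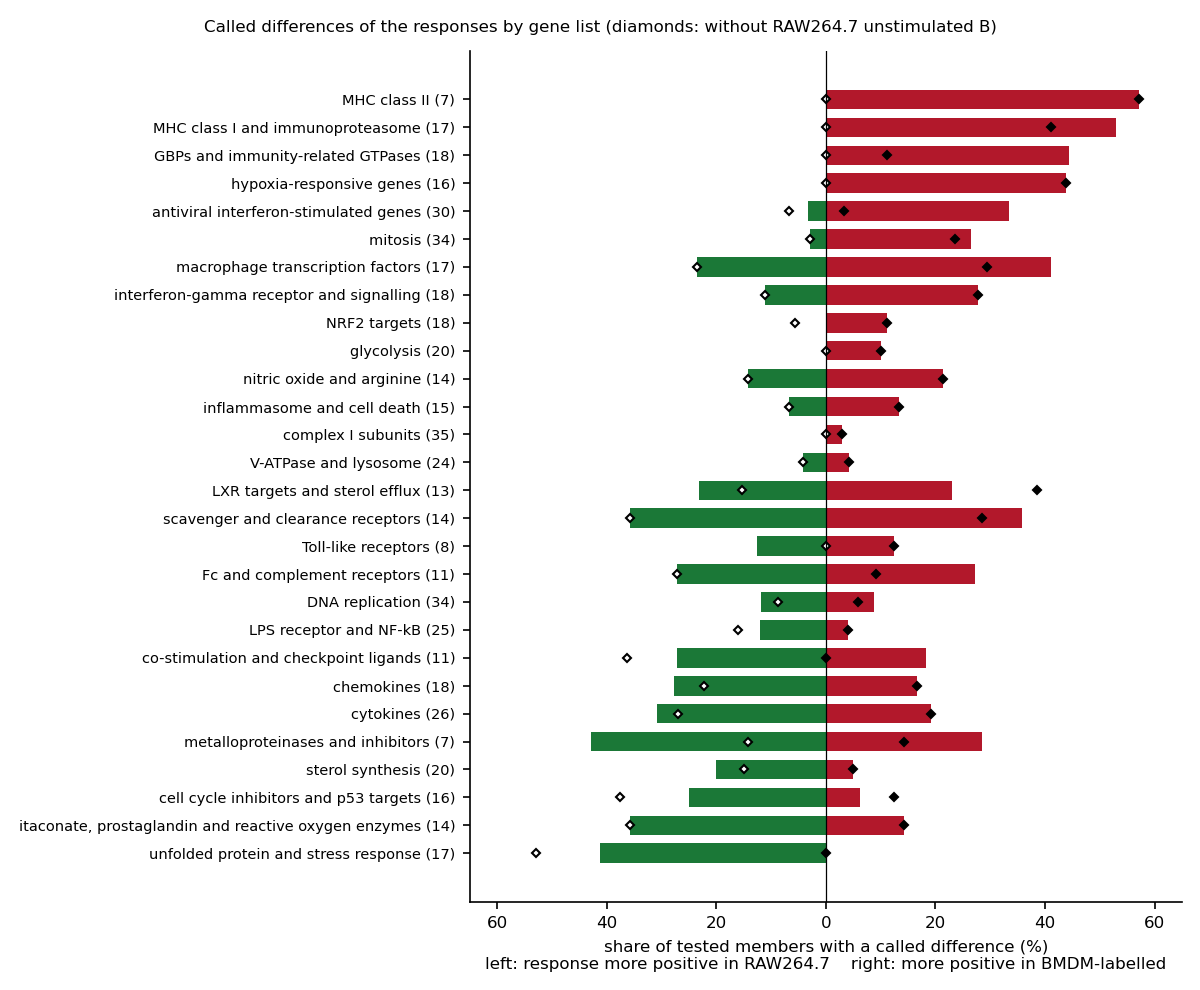
Share of tested members (number in brackets) of each gene list whose difference of responses was called, more positive in RAW264.7 (left, green) or in BMDM-labelled cells (right, red); diamonds give the shares without RAW264.7 unstimulated library B, filled for BMDM-labelled and open for RAW264.7. Over all genes the shares were 6.63% and 7.2%, and the antiviral, GBP and co-stimulation shares toward BMDM-labelled cells fell without that library.

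Cxcl2 and Ptgs2 were far lower in RAW264.7 at rest and close to or above the BMDM-labelled level after stimulation, and such gaps were counted over the shared induced genes. Among those with a called difference and no group within 3 counts, 167 were induced more in RAW264.7 and 140 more in the BMDM-labelled cells. The gap between the sets was taken as the size of the log2 ratio of their mean CPM. Of the 167 genes induced more in RAW264.7, 126 (75.4%) had the larger gap at rest, with a median gap of 1.59 unstimulated and 0.98 stimulated. Of the 140 genes induced more in the BMDM-labelled cells, 43 (30.7%) had the larger gap at rest, with medians of 0.90 and 1.48. Over 13203 genes tested with no group within 3 counts the share was 42.3%. These counts rest on the values that called the differences and are a description without a test.

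**Figure D5:**
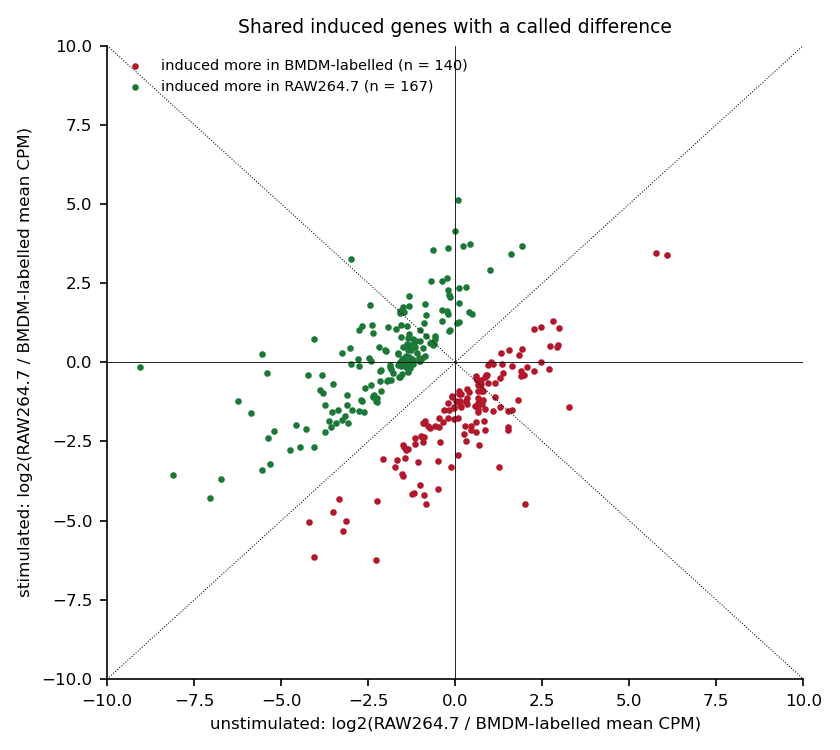
Each point is a shared induced gene with a called difference, placed by the log2 ratio of RAW264.7 to BMDM-labelled mean CPM in unstimulated (x) and stimulated (y) cells; dotted lines mark gaps of equal size. Genes induced more in RAW264.7 (green, 126 of 167 with the larger gap at rest) lie mostly to the left, where RAW264.7 was lower at rest, and genes induced more in the BMDM-labelled cells (red, 43 of 140) lie mostly where the stimulated gap was the larger.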

How the data were processed

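Poly-A RNA-seq was done on 20 libraries, of which the 10 wildtype ones are compared here. The authors deposited 2 tables of raw counts per gene, one for the BMDM-labelled and one for the RAW264.7 libraries. STAR, CASAVA and mm10 are named in the submitters' processing notes, without versions. Gene positions are not printed, because the positions in the tables could not be tied to that build. Genes were matched by gene identifier. Genes needed at least 10 counts in total in each table. Both tables were fitted together, in 8 groups over all 20 libraries with TMM scaling, by edgeR 4.0.16 in R 4.3.3 (quasi-likelihood test, Benjamini-Hochberg adjustment). The difference of the responses was a contrast in that fit, with a spread shared over both tables. Each table was also fitted on its own for its response. Calls needed a log2 value past 1 in size and an adjusted p under 0.05. Limma 3.58.1 (voom, a spread for each table) and DESeq2 1.42.0 were alternatives. Where every library of a group held at most 3 counts, folds are given as bounds. Libraries were compared at 12361217 to 44583327 counts, which limits genes of a few counts.

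Named genes were members of gene lists, markers that check the labels, and the 5 protein-coding genes of each class with the largest value. For the shared classes that value was the smaller of both responses, and for the others the difference. These 5 needed a mean log2 CPM over 3, more than 3 counts in each group, no overlap between the libraries of the called response and, outside the shared classes, a difference called with a spread for each table too. Members and lists were chosen with earlier results of these data known. Some members of the lists are not reported here by name. On simulated data of 17398 genes with the difference of the responses planted, edgeR recovered 43 of 50 genes at a log2 difference of 1.5 and 50 of 50 at 2, 3 and 4, and called 45 of 17198 unchanged genes. These figures describe the simulated counts alone. Whether they hold for the real libraries, with genes of few counts and replicates that lay apart, was not tested. Figures were drawn in Python 3.11.15 with matplotlib 3.10.9.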

Additional observations from a re-analysis of the deposited data

Results flagged for a closer look

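The stimulation response differed between the BMDM-labelled and the RAW264.7 cells by a test of the difference itself (edgeR quasi-likelihood) for 1253 genes more positive in the BMDM-labelled and 1154 more positive in RAW264.7 cells. Among genes induced specifically in the BMDM-labelled cells the log2 difference was 7.87 for Slamf8, 6.39 for Cxcl10, 4.32 for Egr1, 3.51 for F10 and 3.44 for Tent5c. Among those repressed specifically in them it was -3.35 for Fnbp1l, -3.23 for Tfcp2l1, -3.07 for Acy1, -2.96 for Dlg4 and -2.45 for Plekhg3.

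Among genes induced specifically in RAW264.7 the log2 difference was -5.77 for Fabp4, -5.21 for Pla2g5, -4.75 for Myc, -4.34 for H1f2 and -4.03 for Lims2. For genes repressed specifically in RAW264.7 it was 6.20 for Hacd4, 3.84 for St6gal1, 3.74 for Glul, 3.39 for Gstm1 and 2.91 for Slc24a5. Where the responses had opposite directions it was 7.26 for Clec7a, 6.07 for Sgk1, -4.95 for Pdgfb, 4.47 for Egr2 and 4.26 for Tob1. No group held 4 or more libraries, so single libraries were not screened for outlying values.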

How the results depend on the processing

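Of the 2407 called differences, 2212 were called in the same direction by DESeq2, 2257 with TMM scaling within each table, 2133 after filterByExpr, 2221 without a filter and 2167 with the 10 wildtype libraries alone. Without a fold change limit the counts were 2128 and 2644 differences toward BMDM-labelled and RAW264.7 cells, 827 and 898 BMDM-specific induced and repressed, 401 opposite, 2883 and 2958 shared, 5408 and 5520 responses in BMDM-labelled and 3802 and 3676 in RAW264.7 cells. Pearson's r was 0.814 after filterByExpr, 0.731 with voom, 0.748 for protein-coding genes, 0.544 without a filter and 0.768 without genes near 0, the last chosen after seeing the data. Spearman's rho was 0.745, 0.695, 0.493 and 0.703 in those settings other than voom.

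With each library left out in turn, r was 0.602 to 0.687 and rho 0.577 to 0.638. Differences toward BMDM-labelled cells numbered 1009 to 1431 and opposite genes 40 to 82, the lower ends without RAW264.7 unstimulated library B. RAW-specific repressed genes numbered 226 to 374. Of 200 listed or named genes with a called difference, 133 kept the call in all 10 such fits. Called differences that turned sign were those of Gadd45a (-2.85; 1.78 without stimulated RAW264.7 library B), Rtp4 (2.55; -0.71 without unstimulated B) and Ass1 (4.31; -0.02 without unstimulated B). Some uncalled differences of shared genes turned sign too. Over the 10 fits they ran from -1.44 to 3.70 for Ccl5 (lowest without unstimulated RAW264.7 library B, highest and called without stimulated B), from -0.49 to 2.00 for Gbp7 (without unstimulated B and A, the latter called), from -0.36 to 0.63 for Upp1 and -2.37 to 1.04 for Zbp1 (lowest without unstimulated B), and from -1.11 to 0.89 for Batf2, which was 0.31 without stimulated RAW264.7 library A. Cdc20 ran from -0.72 to 0.50, Kntc1 from -0.65 to 1.06 and Plk1 from -0.30 to 0.42. Without stimulated BMDM-labelled library A, Cdc20 was at 0.03 and Kntc1 at -0.05, without B Kntc1 was at -0.20, and without unstimulated RAW264.7 library A Cdc20 was at 0.0033.

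Same-letter deviations correlated at -0.138, -0.288 and 0.103 in the BMDM-labelled cells, so the replicate letters were not taken to pair those samples. They correlated at 0.466 in RAW264.7, where 2 pairs give 1 value, which neither shows nor denies pairing. The study describes the RAW264.7 replicates as clonal, and some genes differed between A and B in both states, as given below. Whether a letter stands for the same clone in both states is not stated, and the main fit did not pair them. A fit without a RAW264.7 library sets a single letter against both, so its shifts can hold differences between A and B. With the letter as a replicate block 2352 differences were called, 2276 of them the same genes and direction. The 2 RAW264.7 libraries per state limit the precision of every difference, and genes within 3 counts in a group carry bounds alone.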

Other observations

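Some genes differed between the RAW264.7 libraries A and B in both states, and were chosen after their values were seen. Slfn5 was at 0 and 0.132 CPM in the unstimulated and stimulated A libraries and at 11.4 and 71.4 CPM in the B libraries. Cxcl16, a membrane-bound chemokine, was at 0.45 and 0.593 CPM in A and 5.83 and 58.8 CPM in B. Axl, an engulfment receptor, was at 47.2 and 35.4 CPM in A and 0.574 and 0.203 CPM in B, and C5ar1, the C5a receptor, at 28.8 and 79.2 CPM in A and 4.67 and 6.74 CPM in B. None of these genes had a called difference of responses with all libraries.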
